A study of Mus musculus with 6 samples.

Results

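The genes described here are 10 genes of common gamma chain cytokine signalling: the cytokine gene Il2, the receptor genes Il2ra, Il2rb, Il2rg and Il7r, the kinase gene Jak3, the transcription factor genes Stat5a and Stat5b, and the kinase genes Pim1 and Pim2. They were chosen by name, with earlier results of these data known. Of them, 8 were measured by a probe set that the platform annotation assigns to 1 gene, among 19938 genes tested. Il2rg had no probe set in the annotation table used here. The probe set of Jak3 is also assigned to Insl3, so it gives no value for Jak3 alone. The data come from 6 Affymetrix arrays, each hybridised with amplified RNA of CCR6+ group 3 innate lymphoid cells (ILC3s) sorted from the lamina propria of the small intestine. The RANKL-deficient group (floxed Tnfsf11 with a Cre transgene) holds 3 samples and the control group (Tnfsf11fl/fl) holds 3. All 6 came from adult mice on a C57BL/6 background and carried floxed alleles of Tnfsf11, the gene of the TNF family cytokine RANKL. The Cre transgene of the RANKL-deficient mice acts in T cells as well as in ILC3s. The controls carried no Cre by their labels, so an effect of Cre and an effect of the deletion cannot be told apart. The labels do not say whether samples came from separate or pooled mice, so a p-value here covers only the spread from sample to sample, and that spread may be technical.

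Common gamma chain cytokines signal through receptors that share the subunit encoded by Il2rg. Binding brings together the kinases JAK1 and JAK3, which phosphorylate STAT5A and STAT5B, and the STAT5 dimers enter the nucleus and switch on genes of survival, division and feedback inhibition. IL-7 is a main survival factor of ILC3s, and IL-2 is known chiefly as a growth factor made by activated T cells.

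The expression level of a gene is given as a log2 RMA value, on which a difference of 1 is a doubling of signal. Array medians lay between 5.07 and 5.15. Control array 1 and control array 2 stood apart from the rest, with SDs over genes of 1.86 and 1.93 against 1.99 to 2.01, and mean correlations across genes with the other arrays of 0.960 and 0.970 against 0.975 to 0.977. The array weights of limma instead were low for control arrays 1 (0.449) and 3 (0.604). Control array 2 had a weight of 1.43, and the RANKL-deficient arrays 1.32 to 1.47. Over all genes the RANKL-deficient minus control difference had a median of −0.054. With genes grouped into quartiles by mean level, that median was −0.10 in the lowest quartile and 0.080 in the highest. The targeted gene Tnfsf11 measured 8.51 ± 0.15 in RANKL-deficient and 8.47 ± 0.26 in control cells (SD, n = 3 each), and the place of its probe set relative to the floxed exons is not known. The 11 ILC3 markers used included Ccr6, Il23r, Kit and Ahr, and the mean level of the 11 per array ran from 9.33 to 9.48 in RANKL-deficient and from 8.99 to 9.54 in control cells. None of them passed in limma. Cxcr5, a chemokine receptor gene on that list, was the 1 with an unadjusted p under 0.05 (higher, as in 4.25% of all genes). It was also the 1 with non-overlapping groups (RANKL-deficient arrays on top, as in 5.28% of all genes). It measured 9.95, 10.12 and 9.76 in RANKL-deficient cells, against 8.91, 9.41 and 8.95 in control cells (difference 0.85, limma adjusted p = 0.377). The 10 others overlapped, with differences from −0.42 (Ltb, the lymphotoxin beta gene) to 0.34 (Il17a). Cxcr5, Ltb and Il17a were named after their values were seen, and their part in the values of the members was not tested.

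No member passed the test, while Il2, Il2ra and Pim2 had all 3 RANKL-deficient arrays above all 3 control arrays. By limma across all genes, 0 of the 8 members passed the Benjamini-Hochberg threshold of 0.05 in either direction, where 1 gene of the 19938 passed higher (0.00502%) and 0 passed lower (0.0%). At an unadjusted p under 0.05, 2 members had higher means in RANKL-deficient cells, Il2 and Pim2, against 4.25% of all genes, and 0 had lower means, against 3.9%. The groups did not overlap for 3 of 8 members with RANKL-deficient arrays on top, against 5.28% of all genes, and for 0 of 8 with control arrays on top, against 9.08%. After median centring of the arrays, those background shares were 7.13% and 5.85%. The members were chosen with earlier results of these data known, so their counts are no independent evidence of a direction. The background shares depended on expression level. In the quartile of highest mean expression, which holds all measured members but Il2, 12.0% of genes had RANKL-deficient arrays on top and 5.44% had control arrays on top. In the next quartile, which holds Il2, the shares were 6.24% and 6.78%. The median difference of the 8 members was 0.21, against −0.054 over all genes and 0.080 in the highest expression quartile.

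**Figure D1:**
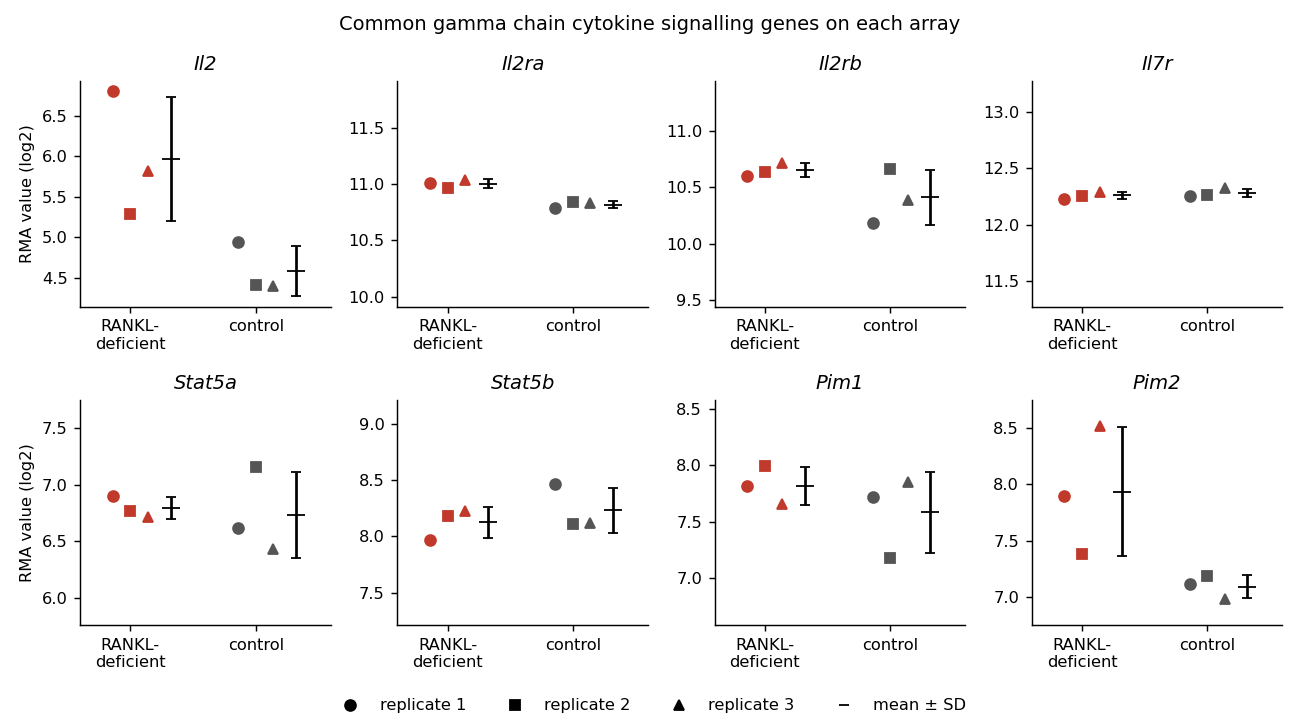
Each panel plots the log2 RMA value of 1 member on the 3 RANKL-deficient arrays (red, left) and the 3 control arrays (grey, right), with the mean ± SD beside the points and marker shapes giving the replicate number. Each vertical axis spans at least 2 log2 units and does not start at 0, so panels show differences and not levels: Il2 and Pim2 are spread widely in the RANKL-deficient group, and Il7r is nearly flat.

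The sequences upstream of 4 members are shown because they are the 3 whose groups did not overlap (Il2, Il2ra and Pim2) and the 1 with a STAT motif in this window (Il7r). Each is the 250 bases before a gene start in RefSeq's table for build GRCm38.p6, written 5′ to 3′ on the strand of the gene: chr3:37125955-37126204 (minus strand) for Il2, chr2:11642542-11642791 (plus strand) for Il2ra, chrX:7878056-7878305 (plus strand) for Pim2 and chr15:9529877-9530126 (minus strand) for Il7r. Capitals mark matches to TTCNNNGAA, the palindromic letters of the site that STAT5 dimers are known to bind, and to GGAAAA or its reverse complement TTTTCC, the core bound by NFAT factors.
Il2: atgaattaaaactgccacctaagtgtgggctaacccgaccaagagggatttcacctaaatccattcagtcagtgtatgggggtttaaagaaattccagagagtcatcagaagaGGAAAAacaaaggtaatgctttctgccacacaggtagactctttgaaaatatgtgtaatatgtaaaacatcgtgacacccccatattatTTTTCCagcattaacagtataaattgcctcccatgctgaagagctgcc
Il2ra: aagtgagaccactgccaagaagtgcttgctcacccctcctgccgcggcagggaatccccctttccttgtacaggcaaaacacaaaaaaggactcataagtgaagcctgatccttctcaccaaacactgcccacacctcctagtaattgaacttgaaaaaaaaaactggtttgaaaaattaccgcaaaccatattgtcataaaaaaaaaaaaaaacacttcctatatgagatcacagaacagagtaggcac
Pim2: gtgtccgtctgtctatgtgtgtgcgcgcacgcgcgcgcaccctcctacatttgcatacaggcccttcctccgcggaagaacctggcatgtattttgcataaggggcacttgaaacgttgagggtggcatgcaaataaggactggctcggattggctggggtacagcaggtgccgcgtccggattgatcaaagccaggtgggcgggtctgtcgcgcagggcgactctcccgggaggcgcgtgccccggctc
Il7r: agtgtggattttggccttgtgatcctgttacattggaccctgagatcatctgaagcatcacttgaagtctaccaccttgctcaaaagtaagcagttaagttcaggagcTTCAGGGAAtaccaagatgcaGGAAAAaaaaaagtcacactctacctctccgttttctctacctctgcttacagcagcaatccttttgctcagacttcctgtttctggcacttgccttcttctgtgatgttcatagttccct
The Il2 window held 2 NFAT core matches, with first bases at −137 and −48 relative to the gene start, and no STAT match. Il7r held 1 STAT match, with its first base at −142, and 1 NFAT core match at −121, and the matches do not overlap. The Il2ra and Pim2 windows held neither. Over 32851 windows of this length in the table, 7.02% held the STAT letters and 20.4% the NFAT core on either strand. Of the 10 listed genes, 9 had at least 1 window (12 windows in all), of which 1 held the STAT letters and 4 the NFAT core. A match is a stretch of letters and no evidence of binding in these cells, and STAT5 sites farther away, in introns or in enhancers, were not searched.

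Il2, the gene of the cytokine itself, had the largest difference of the members. Its level was 6.80, 5.29 and 5.82 on the RANKL-deficient arrays, against 4.94, 4.41 and 4.40 on the control arrays. Every RANKL-deficient array lay above every control array, but the RANKL-deficient arrays spanned 1.51 log2 units and the control arrays 0.54. The difference was 1.38 (SE 0.37), a 2.61-fold ratio with a 95% confidence interval of 1.42 to 4.82, and it did not pass (limma adjusted p = 0.454). Permuting the array labels exactly (two-sided) gave p = 0.1, the minimum for 3 arrays against 3. The difference was 0.97 without RANKL-deficient array 1 and 1.72 without RANKL-deficient array 2. Its control mean of 4.58 lay below the median gene (5.12), and no background level was measured, so whether the control arrays carry Il2 signal at all is unknown, and the true ratio could then be larger.

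Because T cells are the best known source of IL-2, 13 T cell markers are given beside it, and their part in the Il2 values was not tested. The mean level of these markers per array ran from 5.40 to 5.62 in RANKL-deficient and from 5.45 to 5.73 in control cells. Positive differences were found for 4 of the 13, against 7884 of all 19938 genes. Cd3g, a chain of the T cell receptor complex, measured 5.26, 4.20 and 4.89 on RANKL-deficient arrays, against 7.32, 6.93 and 5.82 on control arrays. Every RANKL-deficient value of Cd3g lay below every control value (difference −1.91, limma adjusted p = 0.408). Cd3e differed by −0.70 and Cd3d by 0.26, both with overlapping groups. The adaptor gene Lat (0.51) and the costimulatory receptor gene Icos (0.67) had RANKL-deficient arrays on top, and both are also expressed by ILCs. RMA values have no true zero, so none of these markers can be called absent. Mean marker levels of the other cell types that the sort could hold ran, in RANKL-deficient and then control cells, at 5.38 to 5.50 and 5.53 to 5.61 for B and plasma cells (6 measured markers), and 4.81 to 5.41 and 5.26 to 5.32 for macrophages, monocytes and dendritic cells (8 markers). They were 5.32 to 5.65 and 5.51 to 5.70 for ILC2s (5 markers), and 5.14 to 5.31 and 5.27 to 5.67 for ILC1 and NK cells (8 markers). Epithelial markers (7) averaged 4.96 to 5.75 and 5.45 to 5.53, and mast cell markers (6) 3.36 to 3.44 and 3.48 to 3.73. No marker of any of these lists passed in limma. At an unadjusted p under 0.05, 2 had lower means, as 3.9% of all genes did. Non-overlapping groups occurred for Itgax, with RANKL-deficient arrays on top, and for Ncr1 and Mcpt4, with control arrays on top. Over all genes the shares in those directions were 5.28% and 9.08%.

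None of the 3 measured receptor chains passed the test, and their differences were at most 0.24. Il2ra encodes CD25, the alpha chain that raises the affinity of the receptor for IL-2. Its level was 11.01, 10.96 and 11.04 on RANKL-deficient arrays, against 10.78, 10.84 and 10.83 on control arrays. The groups were narrow and did not overlap, yet the difference was 0.18 (95% confidence interval −0.079 to 0.45, limma adjusted p = 0.689), which bounds a ratio between 0.947 and 1.36. It was 0.082 after quantile normalization and 0.092 after cyclic loess. Il2rb, the beta chain that IL-2 and IL-15 receptors share, measured 10.60, 10.64 and 10.72 in RANKL-deficient cells, against 10.18, 10.67 and 10.39 in control cells. Control array 2 lay within the range of the RANKL-deficient arrays, and control array 1, which stood apart, was the lowest. The difference of 0.24 (95% confidence interval −0.12 to 0.61, limma adjusted p = 0.705) was 0.13 without control array 1 and 0.37 without control array 2.

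Il7r, the alpha chain of the IL-7 receptor and a marker of innate lymphoid cells, was nearly the same on all 6 arrays. It measured 12.23, 12.26 and 12.29 in RANKL-deficient cells, against 12.26, 12.27 and 12.32 in control cells. The groups overlapped. The difference was −0.024 (95% confidence interval −0.29 to 0.24, limma adjusted p = 0.961), so the interval allows ratios from 0.820 to 1.18.

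The transcription factor genes Stat5a and Stat5b showed no detectable difference. Stat5a measured 6.90, 6.77 and 6.71 on RANKL-deficient arrays, against 6.61, 7.16 and 6.43 on control arrays. The control values lay on both sides of the RANKL-deficient ones, and the difference was 0.060 (95% confidence interval −0.42 to 0.54, limma adjusted p = 0.943). Stat5b, which lies next to Stat5a on chromosome 11, measured 7.97, 8.18 and 8.23 in RANKL-deficient cells, against 8.46, 8.11 and 8.12 in control cells. Here control array 1 was the highest of all, and the difference was −0.11 (95% confidence interval −0.46 to 0.25, limma adjusted p = 0.854). The signs of both differences turned under some settings, Stat5a to −0.040 after quantile normalization and Stat5b to 0.0088 without control array 1. STAT5A and STAT5B are close paralogs, and cross-hybridisation between their probe sets was not tested. The probe set assigned to Jak3 and Insl3 together measured 6.94, 6.91 and 6.88 in RANKL-deficient cells, against 6.83, 7.34 and 6.95 in control cells, a difference of −0.13 (limma adjusted p = 0.840 over all probe sets). STAT5 activity rests on phosphorylation, which arrays do not measure.

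Pim1 and Pim2 encode serine-threonine kinases that are induced by STAT5 and promote survival. Pim2 measured 7.90, 7.38 and 8.52 on RANKL-deficient arrays, against 7.11, 7.18 and 6.98 on control arrays. All RANKL-deficient values lay above the narrow control range, and RANKL-deficient array 3 was the highest. The difference was 0.84 (SE 0.27), a 1.79-fold ratio with a 95% confidence interval of 1.14 to 2.80, and did not pass (limma adjusted p = 0.553). It was 0.55 without RANKL-deficient array 3 and 1.12 without RANKL-deficient array 2. Pim1 measured 7.81, 7.99 and 7.65 in RANKL-deficient cells, against 7.72, 7.18 and 7.85 in control cells. Its groups overlapped, with control array 2 alone well below the rest, and the difference was 0.23 (95% confidence interval −0.25 to 0.72, limma adjusted p = 0.761). Without control array 2 it was 0.032. Whether Pim1 and Pim2 differed from each other in their response was not tested.

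**Figure D2:**
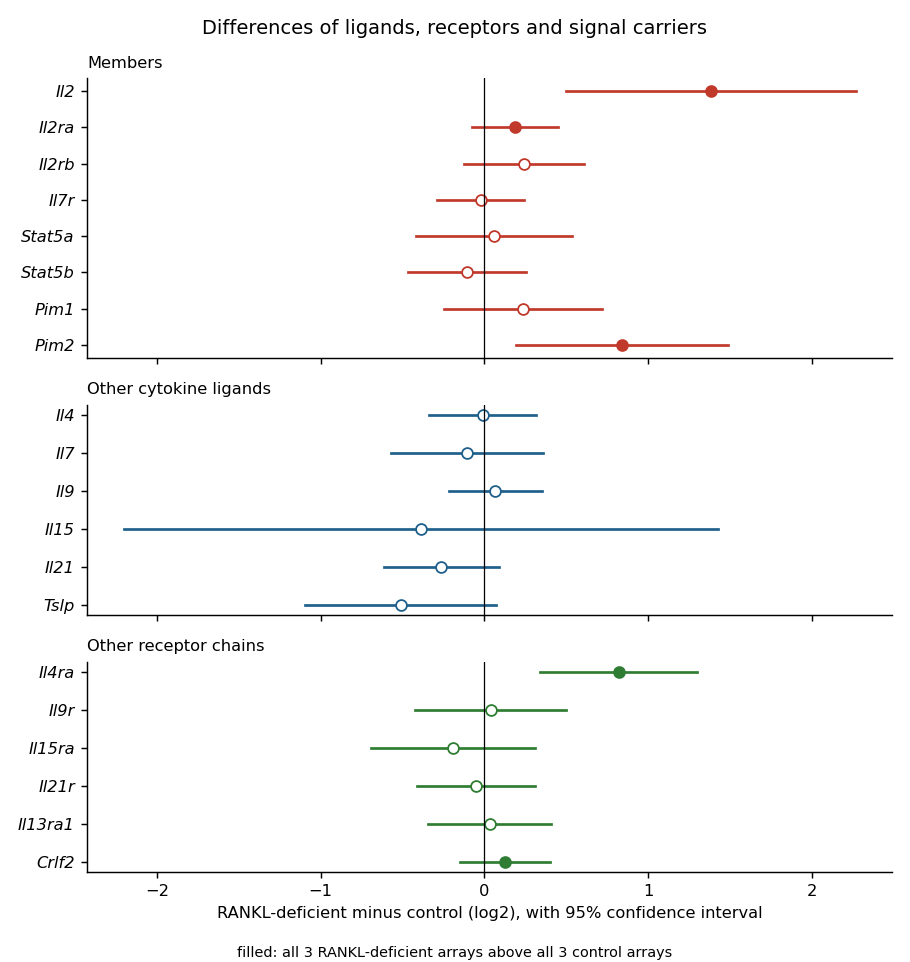
Points give the difference in log2 RMA value, RANKL-deficient minus control, and lines the 95% confidence interval from limma, for the 8 members, the 6 other ligands and the 6 other receptor chains. Filled points mark genes with all RANKL-deficient arrays above all control arrays, which were Il2, Il2ra, Pim2, Il4ra and Crlf2; the interval of Il15 is the widest, from −2.20 to 1.43.

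The genes nearest to Il2 and Pim2 in pattern were found by subtracting from each gene its own mean and taking the root mean square difference over the 6 arrays, among the 19937 other genes. Aoah was nearest to Il2, at 0.225 log2 units, followed by Dck (0.303), Sars2 (0.338), Phf5a (0.365) and Gm24148 (0.378). All of these, like Il2, were highest on RANKL-deficient array 1. Nearest to Pim2 were Kcnk5 (0.166), Mcm5 (0.166), Wfdc2 (0.181), Rmdn3 (0.187) and Olfr524 (0.188), all highest on RANKL-deficient array 3. The peaks of Il2 and Pim2 thus fell on different arrays. With 6 arrays and this many genes, close matches arise readily, and no test was made.

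**Figure D3:**
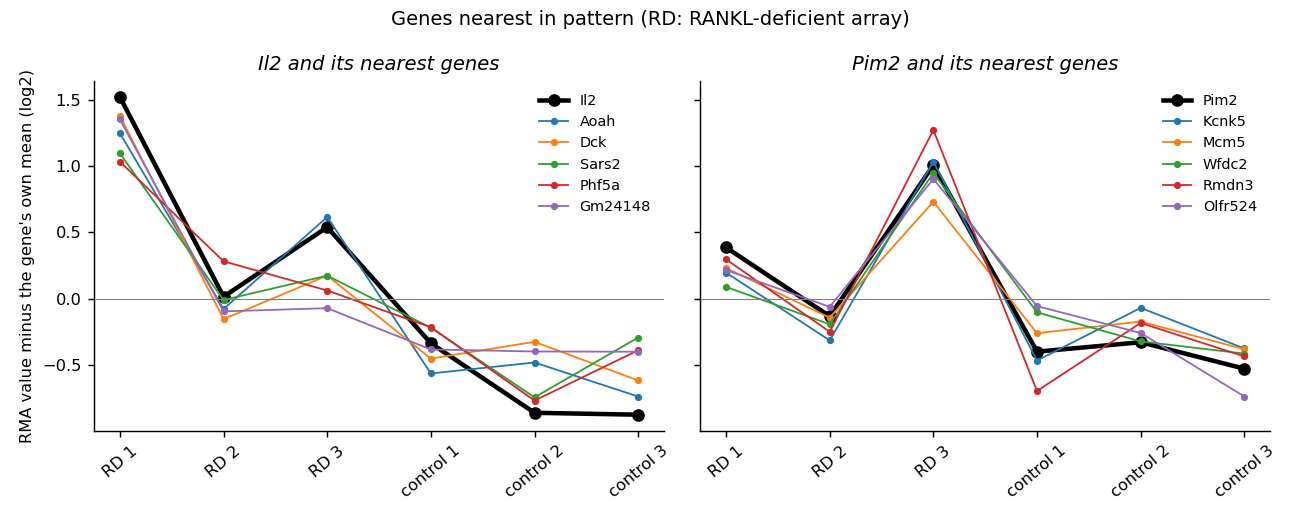
Log2 RMA values minus the mean of each gene are plotted for Il2 (left) and Pim2 (right) in black with the 5 genes nearest to each in colour, on RANKL-deficient arrays (RD) and then control arrays; lines only join the values of a gene. Il2 and its nearest genes peak on RANKL-deficient array 1, and Pim2 and its nearest genes on RANKL-deficient array 3.

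The other cytokine ligands showed no detectable difference. Of 6 measured (Il4, Il7, Il9, Il15, Il21 and Tslp, whose product uses the IL-7 receptor alpha chain), 0 passed in either direction (limma), 0 had an unadjusted p under 0.05, and their median difference was −0.18, against −0.054 over all genes. Tslp was the 1 ligand with RANKL-deficient arrays below control arrays, at 2.40, 2.34 and 2.49 in RANKL-deficient and 2.58, 3.50 and 2.69 in control cells (difference −0.51, limma adjusted p = 0.635). Il21, the neighbour of Il2 on chromosome 3, differed by −0.26 with overlapping groups. Il15, which signals through the chain of Il2rb, measured 4.95, 6.48 and 4.97 in RANKL-deficient cells, against 4.14, 7.05 and 6.37 in control cells. This spread within each group left its difference undetermined, at −1.24 without control array 1 and 0.21 without control array 2. Il4, Il7 and Il9 differed by −0.011, −0.10 and 0.067. All of these ligands but Il15 lay in the lowest expression quartile (means up to 3.99), so whether their probe sets carry signal is unknown. In that quartile 12.3% of genes had control arrays on top, as Tslp did.

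Among the other receptor chains, Il4ra stood out by size. It encodes the alpha chain of the IL-4 receptor and measured 8.47, 8.42 and 8.53 on RANKL-deficient arrays, against 7.21, 7.80 and 7.94 on control arrays. The RANKL-deficient values were tight and all above the control values, of which control array 1 was the lowest. The difference was 0.82 (SE 0.20), a 1.76-fold ratio, and did not pass (limma adjusted p = 0.423). It was 0.60 without control array 1 and 0.53 without control arrays 1 and 2 together. Its neighbour on chromosome 7, Il21r, differed by −0.051. Crlf2, the partner of the IL-7 receptor alpha chain in the TSLP receptor, also had non-overlapping groups but differed by 0.13. Il15ra, the neighbour of Il2ra on chromosome 2, differed by −0.19, Il9r by 0.038 and Il13ra1 by 0.033. In all, 0 of the 6 chains passed in limma and 1 (Il4ra) had an unadjusted p under 0.05 (higher, as in 4.25% of all genes). RANKL-deficient arrays were on top for 2 of the 6, against 5.28% of all genes.

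The remaining kinases and STAT factors had a median difference of 0.0068 over 7 measured genes, with 0 past the limma threshold, 0 at an unadjusted p under 0.05 and 0 with non-overlapping groups. Tyk2 and Jak2, which pair with other cytokine receptors, differed by 0.46 and 0.31, but by −0.0020 and −0.035 without control array 1. In the PI3K and Ras branch that IL-2 also engages, 13 of 19 genes were measured and 0 passed in limma. At an unadjusted p under 0.05, 1 had a lower mean, as 3.9% of all genes did. The docking protein gene Gab2 differed by −0.37 with control arrays on top, and the adaptor gene Grb2 by 0.34 with overlap. Fyn, a Src family kinase gene that was picked out with its values known, differed by 0.20 with RANKL-deficient arrays on top. Each direction thus had 1 of 13 genes with non-overlapping groups, 7.69%, against 5.28% of all genes with RANKL-deficient arrays on top and 9.08% with control arrays on top.

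Of 12 inhibitors of JAK-STAT signalling, 0 passed in limma. At an unadjusted p under 0.05, 2 had higher means, against 4.25% of all genes. Positive differences were found for 10 of the 12, against 7884 of all 19938 genes. Positive differences depended on level, with a median over genes of 0.080 in the highest expression quartile. RANKL-deficient arrays were on top for 3 (Cish, Socs2 and Cbl, the last named after its values were seen). Over all genes the share with RANKL-deficient arrays on top was 5.28%, and in the highest expression quartile it was 12.0%. Cish encodes an SH2 protein that STAT5 induces and that dampens the receptor in turn. Cish measured 9.40, 9.55 and 9.24 in RANKL-deficient cells, against 8.29, 8.79 and 8.85 in control cells. All RANKL-deficient values were above all control values, with control array 1 lowest (difference 0.75, SE 0.18, limma adjusted p = 0.423), and without that array the difference was 0.58. Socs2, another STAT5-induced inhibitor, measured 7.26, 7.14 and 6.96 in RANKL-deficient cells, against 5.18, 4.85 and 5.53 in control cells. Its difference of 1.93 had an adjusted p of 0.135 by limma, and its second probe set gave 0.57, a discrepancy whose cause was not tested.

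Of 22 genes known to be induced by STAT5 or IL-2, 1 passed higher (Ccr2), against 0.00502% of all genes, and 0 passed lower. At an unadjusted p under 0.05, 7 were higher, against 4.25% of all genes, and 0 lower, against 3.9%. RANKL-deficient arrays were on top for 8 of the 22, against 5.28% of all genes. None had control arrays on top, against 9.08%. The 8 genes were Ccr2, Socs2, Ccnd2, Myc, Cish, Bcl2l1, Lta and Bcl2. All 8 were picked from their values: Ccr2, Socs2 and Cish by a rule of smallest p, and the others after their values were seen. Cish and Socs2 stand on both lists. The list was drawn up with earlier results of these arrays known, in which Ccr2, Socs2 and Ccnd2 already stood out, so its counts are no independent evidence of a direction. The median difference of the list was 0.024, against −0.054 over all genes and 0.080 in the highest expression quartile, which holds 11 of the 22. The sizes ran on without a gap, since Bcl2 at 0.33 is in the 8 and Ccnd3 at 0.32 is not. By expression, 5 of the 8 lay among the 11 targets in the highest quartile, where 12.0% of genes had RANKL-deficient arrays on top, and 3 among the 5 targets in the next quartile, where 6.24% had. After quantile normalization, RANKL-deficient arrays were on top for 5 of the 22. Of the 22 targets, 17 had an upstream window in the sequence table, and the STAT letters stood in those of Lta, which is among the 8, and of Ifng, Il12rb2 and Il18r1, which are not.

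Ccr2, a chemokine receptor gene, measured 7.98, 7.96 and 7.44 in RANKL-deficient cells, against 5.15, 4.89 and 5.06 in control cells. It was higher in RANKL-deficient cells by 2.76, a 6.78-fold ratio (limma adjusted p = 0.0236), a call that was lost without any 1 array other than RANKL-deficient array 3 (adjusted p from 0.0673 to 0.250). Ccnd2, the gene of the G1 cyclin D2, measured 10.34, 10.21 and 10.07 in RANKL-deficient cells, against 9.17, 8.95 and 9.31 in control cells. The groups lay well apart, with a 2.08-fold ratio (difference 1.06, SE 0.15, limma adjusted p = 0.245). The survival genes Bcl2l1 and Bcl2 differed by 0.66 and 0.33, and Myc, a driver of growth, by 0.87. Myc measured 6.76, 7.30 and 6.75 in RANKL-deficient cells, against 5.54, 6.71 and 5.94 in control cells, so that control array 2 nearly reached the RANKL-deficient range. Lta, which encodes lymphotoxin alpha, differed by 0.36. The other targets ranged from −0.27 (Cdk6) to 0.32 (Ccnd3), among them, also named after their values were seen, Osm at −0.18, Dusp5 at −0.11 and the Pim family member Pim3 at 0.044.

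**Figure D4:**
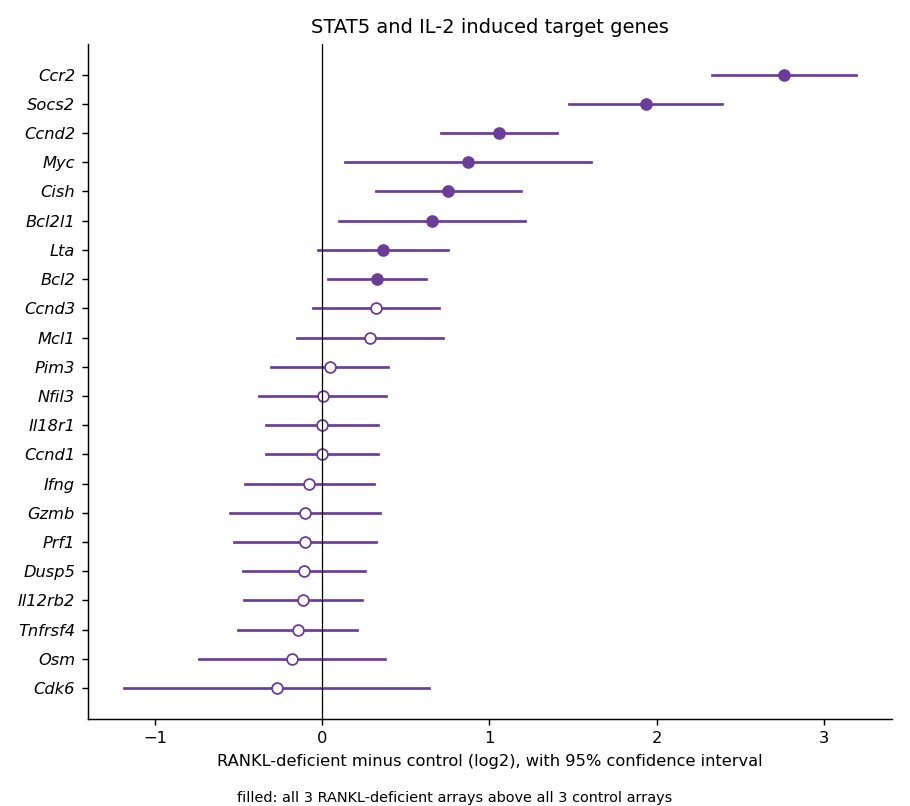
Points give the difference in log2 RMA value, RANKL-deficient minus control, for the 22 STAT5 and IL-2 induced targets in order of size, and lines the 95% confidence interval from limma. The 8 filled points at the top have all RANKL-deficient arrays above all control arrays, and the other 14 lie between −0.27 and 0.32.

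Regulators of the member genes were mixed. Of 11 measured activators of Il2 transcription, 0 passed in limma and 2 had an unadjusted p under 0.05. Of these, 1 was higher, against 4.25% of all genes, and 1 lower, against 3.9%. RANKL-deficient arrays were on top for 3 (Fos, Junb and Rel, the last 2 named after their values were seen). Control arrays were on top for 2 (Rela, and Nfatc3, named in the same way). Over all genes those shares were 5.28% and 9.08%, and in the highest expression quartile 12.0% and 5.44%. Fos, an AP-1 subunit, measured 10.96, 10.93 and 10.75 in RANKL-deficient cells, against 10.33, 10.34 and 10.40 in control cells, a difference of 0.52 (limma adjusted p = 0.423). Rela, an NF-kB subunit, differed by −0.33. Of 9 regulators of Il7r transcription, 0 passed in limma and 1 had an unadjusted p under 0.05 (higher, as in 4.25% of all genes). Ets1 differed by 0.36 and the glucocorticoid receptor gene Nr3c1 by 0.46. These were the 2 of 9 with RANKL-deficient arrays on top, against 5.28% of all genes, and 0 had control arrays on top, against 9.08%. Foxo1, a main activator of Il7r in lymphocytes named here after its values were seen, differed by −0.20.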

How the data were processed

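CCR6+ ILC3s were isolated by collagenase IV digestion and sorting, and 2 ng of total RNA per sample was amplified and biotin-labelled, per the labels' protocols. The deposited values are log2 expression values of 35556 probe sets, which the authors made using Affymetrix Expression Console and RMA, per the submitters' processing notes. The software version and the build were not given in the sources used here. RMA equalises array distributions, so a shift of all genes would not be seen. Arrays give no read depth, so the number of arrays limits precision.

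Of the probe sets, 21789 had 1 gene symbol, 1621 several and 12146 none. Symbols were updated by Entrez identifier against RefSeq (GRCm38.p6), where 19855 of 19938 genes matched. The 999 genes with several probe sets were represented by the one with the highest mean. No filter was applied. The groups were set against each other in limma 3.58.1 under R 4.3.3 (lmFit and eBayes without a block). Tests were two-sided and p-values were adjusted by Benjamini-Hochberg across every gene. The driver of the Cre transgene is not reported here.

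The members, pathway lists and markers were chosen with earlier results of these data known. The rule named all members, all other ligands and receptor chains, the 2 genes of smallest p in each other list, genes past the threshold, and the 5 genes nearest in pattern to the 2 members of largest difference. Genes named by smallest p, threshold or pattern were thus also picked from their values. Alternatives covered normalization, probe set choice, a filter on dim genes, variance model, array weights, replicate block and arrays left out. The labels do not say whether replicate numbers mark a shared litter, sort or day. The deviations of same-numbered arrays from their group means correlated at -0.023, 0.050 and 0.027 across genes. With so few arrays in each group, these correlations cannot decide whether the numbers pair the samples.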

Additional observations from a re-analysis of the deposited data

How the results depend on the processing

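Over 36 of the named genes and 16 alternatives, 528 of 568 values kept their direction and side of the threshold. Of the rest, 32 changed sign and 8, all of Ccr2, lost the call. Testing all probe sets, the filter on dim genes, the variance model and the replicate block cannot change a difference, only its p-value. Of these genes only Ccr2 passed at first, so the total is no measure of stability. The markers, Tnfsf11, the genes nearest in pattern, Cbl, Fyn, Junb, Rel, Nfatc3, Foxo1 and the targets with overlapping groups were not among the 36. With 3 arrays a group, differences of the size of most members could not be told from the spread. No member passed in any alternative run: the lowest adjusted p was 0.318, for Il2 without control array 3, and Il2, Il2ra, Il2rb and Pim2 kept a positive sign throughout. The cause of the sign changes was not tested. Quantile normalization gave -0.040 for Stat5a, 0.090 for Il4 and 0.048 for Il21r. Median centring gave 0.027 for Il7r, 0.040 for Il4 and 0.00015 for Il21r, and cyclic loess gave 0.098 for Il4 and 0.059 for Il21r. Array weights gave -0.090 for Stat5a and 0.048 for Il4. Without control arrays 1 and 2 together, Stat5b was 0.0051, Pim1 -0.033 and Tyk2 -0.0068. Leaving out 1 array in turn gave ranges of -0.092 to 0.27 for Stat5a, -0.17 to 0.0088 for Stat5b, -0.098 to 0.058 for Il4, -0.24 to 0.071 for Il7, -1.24 to 0.21 for Il15, -0.092 to 0.22 for Il9r, -0.12 to 0.072 for Il21r, -0.047 to 0.16 for Il13ra1, -0.0020 to 0.69 for Tyk2 and -0.035 to 0.54 for Jak2.

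Members with RANKL-deficient arrays on top numbered 3 when 1 array was left out, where 8.27% to 11.7% of all genes did so, except 5 without control array 2 (8.43% of all genes). They numbered 5 without control arrays 1 and 2 together (25.6% of all genes). Members with control arrays on top numbered 0 to 1 when 1 array was left out (13.4% to 23.7% of all genes). They numbered 1, Il7r, after quantile normalization (7.18% of all genes), after cyclic loess (6.46%) and without control arrays 1 and 2 together (26.1%). Of the STAT5 and IL-2 induced targets, the count past the threshold was 0 to 1 when 1 array was left out, and 0 with all probe sets tested, with the replicate block and without control arrays 1 and 2 together. Targets with RANKL-deficient arrays on top numbered 5 after quantile normalization (5.83% of all genes) and 8 to 10 when 1 array was left out (8.27% to 11.7%). Targets with control arrays on top numbered 1 after quantile normalization (Il18r1, against 7.18% of all genes). They numbered 3 without control arrays 1 and 2 together (26.1%), and 0 to 2 when 1 array was left out (13.4% to 23.7%). With the replicate number as a block, 0 members passed, and Ccr2 lost its call (limma adjusted p = 0.331). Each number holds 1 array of each group, so by design the block left every difference as it was. For Il2 that was 1.38 (limma adjusted p = 0.458). The replicate block changed no other call.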
